A study of Mus musculus with 37 samples.

Results

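The nucleus accumbens of adult mice that overexpressed the glucocorticoid receptor throughout life was compared with that of mice that overexpressed it in early life. The arrays were chosen by their titles, which gave 7 lifetime and 6 early-life arrays, or 13 of the 37 arrays of the series. The 6 accumbens arrays of control mice without the overexpression served as a reference level and shared in the estimate of the spread between arrays. All animals were male C57BL/6J mice, adult at collection and undisturbed in the morning before it. In the first group the glucocorticoid receptor overexpression (GRov) lasted for the whole lifetime, in the second it was limited to early life, and the third was labelled No-GRov. The labels place the overexpression in the forebrain but name no promoter, no drug or other agent that limited it in time, no age in days and no litter. Each animal gave 1 accumbens array, from tissue that was laser-captured from 12 µm coronal sections, and 18 of the 19 animals also gave a dentate gyrus array (DG). RNA from such captures went through repeated rounds of linear amplification before labelling, and each value is a log2 expression value.

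The glucocorticoid receptor is a nuclear receptor that binds corticosterone, moves to the nucleus and regulates transcription at glucocorticoid response elements or through other transcription factors. In the forebrain it takes part in the negative feedback of the stress axis. The nucleus accumbens is the ventral part of the striatum, made mostly of GABAergic medium spiny neurons of the direct pathway (Drd1, Tac1) and of the indirect pathway (Penk, Adora2a), and it receives dopamine from the midbrain and glutamate from cortex, hippocampus and amygdala. Because whole captured tissue was measured, fewer cells of a type and less RNA per cell cannot be told apart.

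The comparison was made with all arrays and without early array 5 and lifetime array 8, 2 arrays set apart after an earlier look at these data. The accounts of gene lists give values without the 2 unless stated, and for named genes also the value with all arrays where it differs by over 1.5 times. Early array 5 had a median of 6.50 and an interquartile range of 1.72, and its mean correlation with the other 18 accumbens arrays was 0.773. The corresponding correlation of the other 18 arrays lay between 0.973 and 0.980. Lifetime array 8 had the next highest median, 6.27, and an interquartile range of 2.20. Its mean correlation of 0.973 was part of that range, in which every value includes the correlation with early array 5. Against the kept arrays alone, the mean correlation was 0.981 for lifetime array 8 and 0.987 to 0.993 for the kept arrays. Lifetime array 13, which was kept, had a mean correlation of 0.973 over all arrays and of 0.987 against the kept arrays. It had the highest interquartile range, 2.54. With early array 5 and lifetime array 8 left out, medians were between 6.13 and 6.22 and interquartile ranges between 2.28 and 2.54. The groups did not differ detectably in these measures: the lifetime minus early difference was -0.06 in the median (exact permutation p = 0.348), 0.13 in the interquartile range (p = 0.286) and 0.03 in the mean correlation (p = 0.452), two-sided, and adjusted p over the 6 such tests was 0.522 or higher. Without the 2 arrays the differences were -0.02, 0.05 and -8e-04, with exact permutation p values of 0.123, 0.219 and 0.558. These tests hold few arrays and do not show that the groups were alike.

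**Figure D1:**
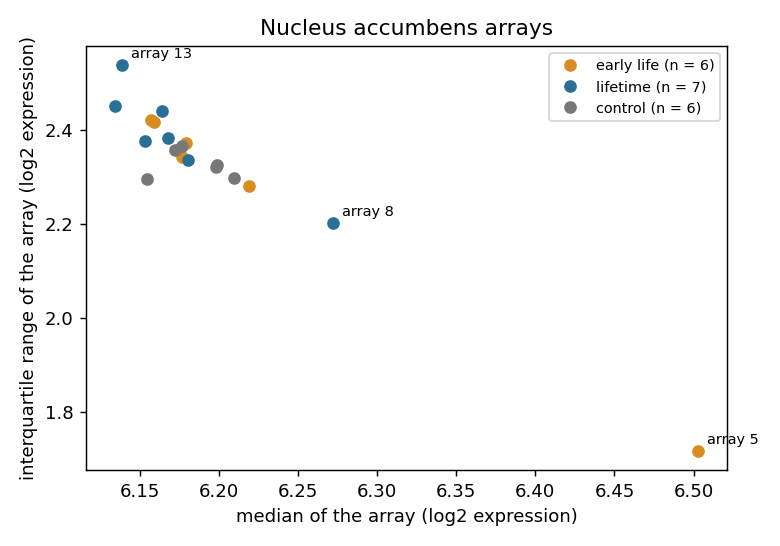
Median (x axis, log2 expression) and interquartile range (y axis, log2 expression) of each of the 19 accumbens arrays, with early-life, lifetime and control arrays in separate colours. Early array 5 lies apart at a median of 6.50 and an interquartile range of 1.72, and lifetime array 8 at 6.27 and 2.20.

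The tissue label was checked against defining markers. Tac1, the substance P precursor of direct-pathway neurons, lay between 12.75 and 13.41 in the 11 lifetime and early arrays that remained, and at 9.33 in early array 5. Penk, the enkephalin precursor, lay between 9.42 and 12.09 over all 13 arrays, and Drd1 between 8.66 and 10.36. The granule cell markers Dsp and Lct were near the bottom of the scale in the accumbens, between 4.29 and 4.86, while both were at least 11.02 in every dentate gyrus array of the control mice. Slc17a7, the vesicular glutamate transporter of cortical and hippocampal neurons, was 7.11 in early array 5 and at most 5.83 in the other 12. No feature with exactly 1 symbol stood for Drd2, Pdyn or Chat, which are not analysed here.

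Nr3c1, the gene of the glucocorticoid receptor, was described first. Its log2 level ran from 6.84 to 7.78 in the 6 early arrays (median 7.54) and from 7.33 to 8.12 in the 7 lifetime arrays (median 7.80). The lowest value of each group belonged to early array 5 and lifetime array 8, and the groups overlapped with and without them. The lifetime mean was higher by 0.30 (SE 0.14, limma adjusted p = 0.572) with all arrays and by 0.25 (SE 0.09, adjusted p = 0.405) without the 2, and 6 of 7 and 6 of 6 lifetime arrays were above the early mean. A two-sided exact permutation test of this single value gave p = 0.0804 with all arrays, and p = 0.0260 without the 2 (0.0519 after adjustment over these 2 tests). Left out one at a time from the 11 arrays, early arrays 1, 2 or 3 or lifetime array 10 moved that exact p above 0.05, with differences from 0.18 to 0.24. Whether the measured feature reads the transgene as well as the endogenous transcript is not given in the sources used here.

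Across the 11301 features tested, 1 passed an adjusted p of 0.05 with all arrays (0.00885% of those tested) and 12 passed without the 2 arrays (0.106%). All 12 were higher in lifetime than in early-life tissue, 11 of them carry a gene symbol, and none was lower. At an unadjusted p under 0.05 the limma fit without the 2 arrays held 628 higher and 420 lower features, against 355 and 243 with all arrays. The median difference over all tested features was 0.01 with all arrays and 0.0045 without the 2. The 11 named rises were between 0.36 and 0.75 on the log2 scale, or 1.28-fold to 1.69-fold. All 12 features had the same direction with all arrays, where 1 of them, Lrrc58, was also past the threshold.

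These calls depended on single arrays and on the model fitted. Without the 2 arrays, 1 feature passed once the interquartile range of each array was a covariate. With all arrays the single call, Lrrc58, was lost (0 features past the threshold) on leaving out any 1 of the 6 early arrays, of lifetime arrays 7 and 9 to 13, or of control arrays 14, 16, 18 and 19. With both regions in one limma fit and the animal as a random block, 0 features passed without the 2 arrays (700 at an unadjusted p under 0.05). In that fit the adjusted p of the 11 named genes lay between 0.0728 and 0.508, with differences of 0.36 to 0.74. The same fit also added the dentate arrays to the estimate of the spread, and the part of the block alone was not tested. Leaving out early array 1 or early array 4 from the reduced set left 0 calls, lifetime array 13 left 1, early array 6 or lifetime array 10 left 3, early array 3 left 4 and early array 2 left 5. Control arrays 15, 17 and 18 left 6, 6 and 7. Ttll1 passed in 15 of the 17 fits that each left out 1 array, Lrrc58 in 13, Zfp941, Actb and Zc3h4 in 12, Ddit4 in 11, Tulp4 in 5, Coq9 in 4, and Acsl6, Bzw2 and Scaper in 3 each, and no difference changed sign.

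Lrrc58, which encodes a leucine-rich repeat protein, was the one gene past the threshold in both comparisons. It ran from 11.97 to 12.29 in the 6 early arrays (median 12.12) and from 12.60 to 13.12 in the 7 lifetime arrays (median 12.68), so that every lifetime array lay above every early array. The difference was 0.64 (SE 0.10, adjusted p = 0.0453) with all arrays and 0.63 (SE 0.10, adjusted p = 0.0247) without the 2. Groups that did not overlap made up 0.257% of all tested features with all arrays (0.212% higher and 0.0442% lower in lifetime tissue) and 1.63% without the 2 (1.19% higher and 0.442% lower). All 11 named rises belonged to the non-overlapping features of the reduced set, and 3 of them, Lrrc58, Ttll1 and Actb, also did so with every array in place.

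Actb, beta-actin, ran from 10.39 to 10.84 in the early arrays (median 10.71) and from 11.14 to 11.60 in the lifetime arrays (median 11.19). It was higher by 0.59 (SE 0.10, adjusted p = 0.0262) without the 2 arrays. With all arrays it was higher by 0.63 (SE 0.10) in 7 of 7 arrays, and the adjusted p of 0.0544 missed the threshold. Beta-actin is often used as a reference transcript, and its early and lifetime groups were disjoint here. Ttll1, which adds glutamate side chains to tubulin, ran from 6.47 to 6.65 in the early arrays (median 6.62) and from 6.69 to 7.55 in the lifetime arrays (median 7.20). The rise of Ttll1 was 0.63 (SE 0.09, adjusted p = 0.0215) in the reduced set and 0.55 (SE 0.11, adjusted p = 0.289) with all arrays. Its lowest lifetime value, 6.69, was that of lifetime array 8.

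Ddit4, a glucocorticoid- and stress-induced inhibitor of mTOR signalling, showed the largest of the 11 named differences without the 2 arrays, while with all arrays Tulp4 (0.90) and Coq9 (0.84) exceeded it. Ddit4 ran from 5.57 to 6.39 in the early arrays (median 5.94) and from 5.99 to 7.03 in the lifetime arrays (median 6.78). The lowest value of each group again came from early array 5 and lifetime array 8, and without them the early arrays ended at 6.39 and the lifetime arrays began at 6.56. The rise was 0.75 (SE 0.13, adjusted p = 0.0276) without the 2 arrays and 0.72 (SE 0.17, adjusted p = 0.504) with them. Above the early mean were 6 of 6 and 7 of 7 lifetime arrays, although lifetime array 8, at 5.99, lay below early values of 6.01, 6.16 and 6.39.

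Acsl6, a long-chain acyl-CoA synthetase of the brain, ran from 8.0007 to 9.83 in the early arrays (median 9.56) and from 9.44 to 10.32 in the lifetime arrays (median 10.07). Its difference was 0.52 (SE 0.10, adjusted p = 0.0406) in the reduced set and 0.69 (SE 0.22, adjusted p = 0.572) with all arrays. Coq9, a lipid-binding protein needed for coenzyme Q synthesis, was tightly grouped at 7.98 to 8.02 in the 5 remaining early arrays and at 5.81 in early array 5. In the lifetime arrays Coq9 lay between 7.76 and 8.89 (median 8.60), and its rise without the 2 arrays was 0.59 (SE 0.11, adjusted p = 0.0406). With all arrays that difference was 0.84 (SE 0.30, adjusted p = 0.572).

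Of the other rises, Zfp941, a zinc finger protein, lay between 6.02 and 7.01 in the early arrays (median 6.86) and between 6.45 and 7.75 in the lifetime arrays (median 7.41), with a rise of 0.60 (SE 0.10, adjusted p = 0.0247) without the 2 arrays. Zc3h4, a zinc finger protein that limits noncoding transcription, lay between 7.22 and 8.26 (median 8.0011) and between 7.78 and 8.67 (median 8.57), with a rise of 0.47 (SE 0.08, adjusted p = 0.0247). In both genes the 2 lowest values of the 13 were those of early array 5 and lifetime array 8, and the SE with all arrays was 0.18 and 0.16. Bzw2, a regulator of translation initiation, lay between 7.78 and 8.20 in the early arrays (median 7.98) and between 7.93 and 8.52 in the lifetime arrays (median 8.41), with a rise of 0.40 (SE 0.08, adjusted p = 0.0420). Tulp4, a tubby-like protein, lay between 5.48 and 7.68 (median 7.52) and between 7.47 and 8.64 (median 8.11), with a rise of 0.66 (SE 0.12, adjusted p = 0.0403). Scaper, a cyclin A-associated protein of the endoplasmic reticulum, lay between 6.94 and 7.98 (median 7.93) and between 7.86 and 8.39 (median 8.35), with a rise of 0.36 (SE 0.07, adjusted p = 0.0420). With all arrays these 5 differences were 0.59, 0.51, 0.30, 0.90 and 0.46, each with an adjusted p of 0.572. The remaining feature, a predicted transcript XM_001476640 with no symbol here, was higher by 0.68 (SE 0.13, adjusted p = 0.0406) without the 2 arrays.

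**Figure D2:**
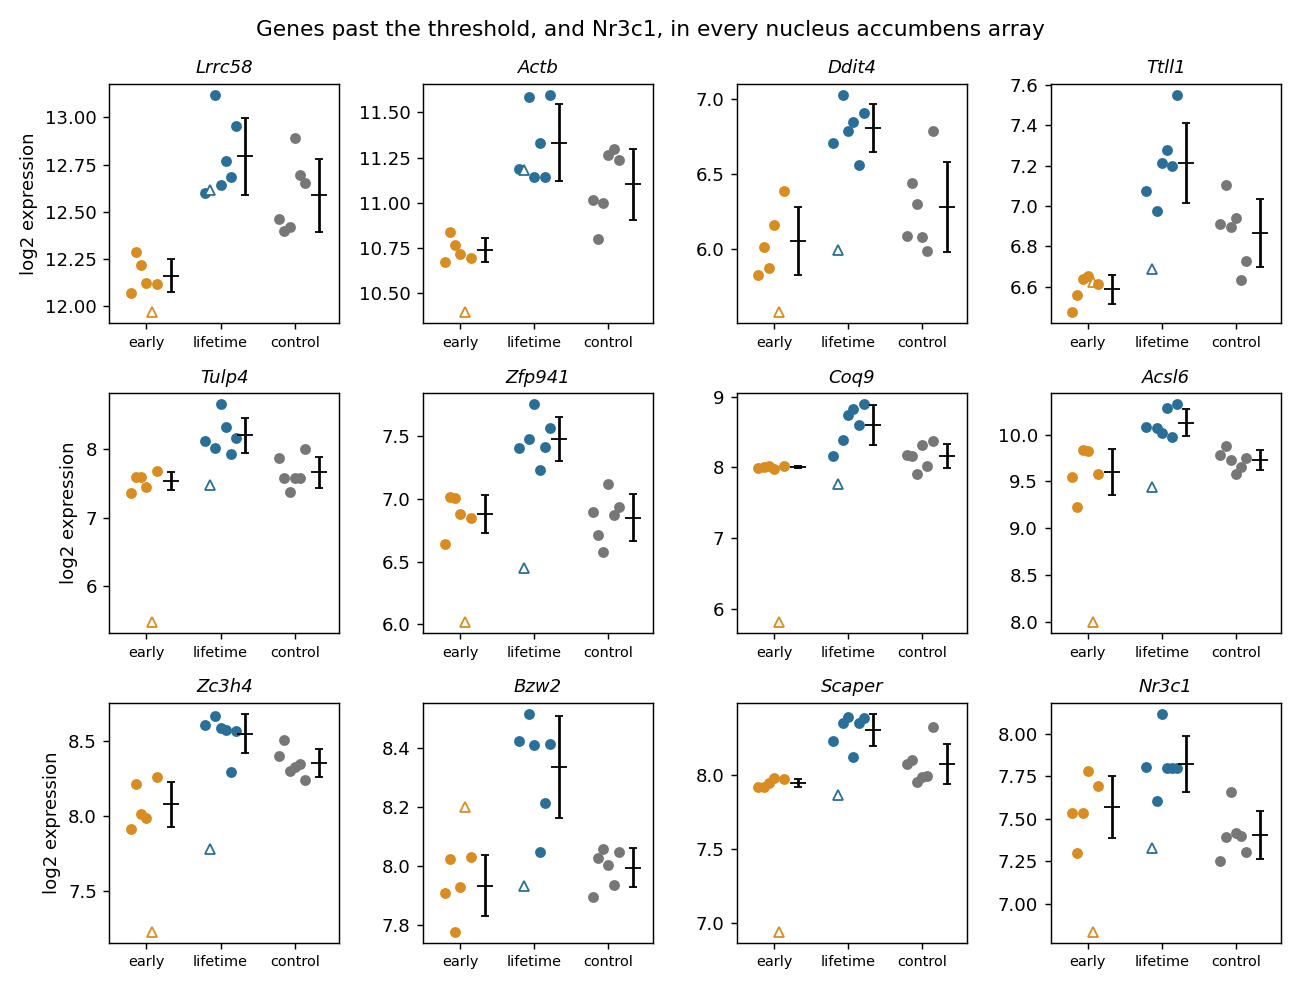
Log2 expression (y axis, a separate scale in each panel) of the 11 named rises and of Nr3c1 in every early-life, lifetime and control accumbens array. Open triangles are early array 5 and lifetime array 8, and bars give the mean ± SD of each group without them. In the 11 rises the filled lifetime points lie above all filled early points, while for Nr3c1 they overlap.

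The control arrays placed these genes on both sides of the control mean. In the reduced set the lifetime mean was above the control mean for all 11 named genes, and the early mean was below it for 10 of them, the exception being Zfp941 (0.03 above, SE 0.10). These 2 comparisons share the control arrays, and each shares arrays with the lifetime minus early comparison, so the counts are a description. Control arrays 14 and 16 held Ttr, a choroid plexus marker, at 13.10 and 12.36, against at most 4.60 in the other control arrays. The comparisons with control were not repeated without arrays 14 and 16. In the lifetime minus control comparison 2.61% of all tested features passed the threshold (2.06% higher and 0.549% lower), and 7 of the 11 did: Ddit4, Tulp4, Ttll1, Zfp941, Coq9, Acsl6 and Bzw2. In the early minus control comparison 0.0796% passed (0.0531% higher and 0.0265% lower), and none of the 11 did (limma, adjusted p between 0.098 and 0.951). Lrrc58 differed from control by -0.43 in early tissue (SE 0.10, adjusted p = 0.098) and by 0.21 in lifetime tissue (SE 0.10, adjusted p = 0.203). For Actb the corresponding differences from control were -0.36 (SE 0.10, adjusted p = 0.165) and 0.23 (SE 0.10, adjusted p = 0.167). With all arrays 0 features passed in either control comparison, so each of these calls rests on leaving out the 2 arrays. Zfp941 was, without them, 0.62 above control in lifetime tissue (SE 0.09, adjusted p = 0.00487) with early tissue near control.

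Because the overexpressed protein binds DNA, promoter sequences were read for those in the RefSeq promoter table of build GRCm38.p6, which holds 250 bases before to 50 after each start. A total of 9 of the 11 named genes had an entry, with 13 promoters. The full palindromic glucocorticoid response element was searched on both strands and was found in 0 of the 13, against 0.06% of the 32851 promoters of the table. Its shorter core TGTTCT was found in promoters of 3 genes (Acsl6, Scaper and Zfp941), against 14.62% of the 8127 tested genes with a promoter entry and 18.97% of all promoters of the same length. The cAMP response element TGACGTCA was found in 0 of the 13 (1.79% of all promoters), and its core TGACG in promoters of 3 genes (Coq9, Scaper and Zc3h4), against 34.88% of those tested genes and 20.81% of all promoters. TGACG lies within TGACGTCA, and TGTTCT matches the end of the full glucocorticoid element. These counts describe letters in the window and no binding. The promoters of Lrrc58, past the threshold in both comparisons, Ddit4, with the largest difference without the 2 arrays, and Zfp941, with that core (capitals), are shown 5′ to 3′ on the strand of the gene.
Lrrc58, chr16:37868150-37868449, plus strand: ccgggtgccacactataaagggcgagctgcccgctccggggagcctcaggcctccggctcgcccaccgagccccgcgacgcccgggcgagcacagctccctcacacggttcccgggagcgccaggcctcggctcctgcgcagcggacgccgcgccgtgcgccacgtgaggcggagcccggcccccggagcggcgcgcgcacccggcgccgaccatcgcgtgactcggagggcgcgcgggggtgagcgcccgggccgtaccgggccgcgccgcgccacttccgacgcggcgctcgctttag
Ddit4, chr10:59951721-59952020, minus strand: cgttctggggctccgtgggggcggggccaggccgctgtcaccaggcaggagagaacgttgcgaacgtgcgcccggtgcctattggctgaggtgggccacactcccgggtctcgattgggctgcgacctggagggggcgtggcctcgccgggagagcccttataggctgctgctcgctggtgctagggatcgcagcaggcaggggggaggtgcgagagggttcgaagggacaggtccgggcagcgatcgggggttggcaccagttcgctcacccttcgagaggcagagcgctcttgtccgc
Zfp941, chr7:140822129-140822428, minus strand: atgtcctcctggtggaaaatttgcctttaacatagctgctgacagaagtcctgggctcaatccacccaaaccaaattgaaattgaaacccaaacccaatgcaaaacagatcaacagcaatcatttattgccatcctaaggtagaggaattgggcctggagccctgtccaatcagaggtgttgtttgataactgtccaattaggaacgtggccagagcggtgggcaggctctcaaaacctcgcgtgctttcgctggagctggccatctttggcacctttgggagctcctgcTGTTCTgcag

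Several further genes had small p values without passing, and they are given as values. Acsbg1, an acyl-CoA synthetase of astrocytes, ran from 7.17 to 7.72 in the early arrays and from 7.79 to 8.29 in the lifetime arrays, with no overlap, and its difference was 0.50 (SE 0.10, adjusted p = 0.05001) without the 2 arrays. Galnt18, a glycosyltransferase, differed by 0.50 (SE 0.10, adjusted p = 0.05001). Lingo3, a leucine-rich repeat membrane protein of neurons, ran from 8.17 to 8.46 and from 8.51 to 8.80, and its difference was 0.34 (SE 0.07, adjusted p = 0.0560). Luzp2, a leucine zipper protein, differed by 0.66 (SE 0.18, adjusted p = 0.212), with overlapping groups.

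Of the genes with lower lifetime values, none passed in either comparison, and the 8 with the smallest p over all arrays are named. Camk2a, the alpha subunit of a calcium-dependent kinase of glutamate synapses, ran from 7.58 to 7.91 in the early arrays (median 7.76) and from 7.33 to 7.79 in the lifetime arrays (median 7.39). Its difference was -0.34 (SE 0.07, adjusted p = 0.0548) without the 2 arrays, where the groups did not overlap, and -0.29 (SE 0.08, adjusted p = 0.572) with them. Rpl37a, a protein of the large ribosomal subunit, ran from 9.21 to 9.28 and from 8.61 to 9.10, without overlap, and differed by -0.47 (SE 0.10, adjusted p = 0.0560). Nrxn2, a presynaptic adhesion molecule, differed by -0.46 (SE 0.10, adjusted p = 0.0710), and Adcy1, a calcium-stimulated adenylyl cyclase, by -0.42 (SE 0.12, adjusted p = 0.220). Emd, a protein of the inner nuclear membrane, differed by -0.31 (SE 0.07, adjusted p = 0.132). The differences of Dlc1, a GTPase-activating protein, Mrpl23, of the mitochondrial ribosome, and Ifit1bl1, of an interferon-induced family, were -0.19, -0.28 and -0.65, with adjusted p values of 0.220, 0.220 and 0.250.

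**Figure D3:**
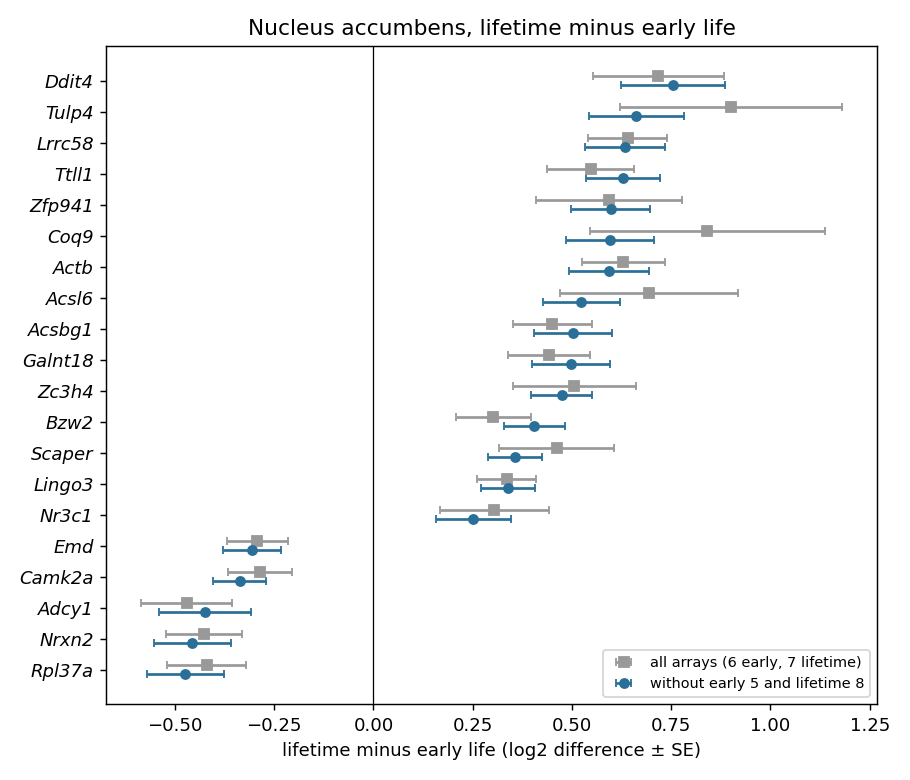
Lifetime minus early-life difference (x axis, log2) with its limma SE for the 11 named rises, Nr3c1 and 8 further genes not past the threshold. Grey squares are with all arrays, and blue circles are without early array 5 and lifetime array 8. The direction of every gene shown is the same in both, and the bars of Tulp4, Coq9 and Acsl6 are wider with all arrays.

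Known targets of the receptor were looked at as a list. Of 24 glucocorticoid-induced genes, 21 were tested: 1 rose (Ddit4) and none fell, where 0.106% of all tested features rose, and 10 of 21 differences were above 0 without the 2 arrays, with a median of -0.0023 beside 0.0045 over all tested features. Per1, a clock gene with glucocorticoid response elements, ran from 7.66 to 7.97 in early and from 7.55 to 7.79 in lifetime arrays and differed by -0.14 (SE 0.08, adjusted p = 0.552). The list of stress axis receptors and chaperones, which holds Nr3c1 itself, had 15 tested genes, none past the threshold, and a median of 0.07 (0.12 with all arrays). Hsp90aa1, a chaperone that holds the receptor ready for ligand, was 7.17 in early array 5 and 9.30 to 10.12 in the 11 arrays of the reduced set, with a difference of 0.28 (SE 0.11, adjusted p = 0.463), and of 0.58 (SE 0.29) with all arrays.

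The neurons that make up the accumbens showed no change past the threshold. Of 6 direct-pathway markers tested 4 were above 0 (median 0.12), of 4 indirect-pathway markers 3 (median 0.04), and of 19 markers shared by medium spiny neurons 13 (median 0.09). With all arrays these counts were 6, 2 and 14, with medians of 0.23, 0.03 and 0.15. Tac1 differed by 0.33 (SE 0.10, adjusted p = 0.289) and Slc35d3, a direct-pathway transporter, by 0.42 (SE 0.21, adjusted p = 0.549). With all arrays these differences were 0.90 (SE 0.43) and 0.74 (SE 0.33), each with an adjusted p of 0.572. Adora2a, the adenosine receptor of indirect-pathway neurons, differed by -0.07 (SE 0.09, adjusted p = 0.804), and by -0.12 with all arrays. Among the shared markers, Actn2, an actin-binding protein of dendritic spines, ran from 6.67 to 6.99 in the 5 remaining early arrays and from 7.02 to 7.39 in the 6 lifetime arrays. The difference of Actn2 was 0.34 (SE 0.08, adjusted p = 0.122), and 0.15 (SE 0.14) with all arrays. Early array 5 held the highest Actn2 value of the 13, 7.79, and the lowest Tac1 value. Of 23 genes of dopamine, G protein and cAMP signalling 18 were above 0 (median 0.08, and 0.18 with all arrays), with Prkar2b, a regulatory subunit of protein kinase A, at 0.38 (SE 0.12, adjusted p = 0.289; 0.58 with all arrays) and Crem, a cAMP-responsive repressor and activator, at -0.36 (SE 0.10, adjusted p = 0.251).

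The GABA genes Gad2, Slc32a1 and Abat had positive differences below the threshold, while most interneuron markers had negative ones. Gad2, which makes GABA for synaptic release, ran from 10.31 to 10.50 in the 5 remaining early arrays and from 10.68 to 11.03 in the 6 lifetime arrays, with a difference of 0.42 (SE 0.12, adjusted p = 0.224). Slc32a1, the vesicular GABA transporter, differed by 0.32 (SE 0.09, adjusted p = 0.275) and Abat, which breaks down GABA, by 0.43 (SE 0.14, adjusted p = 0.334). With all arrays the differences of Slc32a1 and Abat were 0.86 (SE 0.42) and 0.85 (SE 0.40). In early array 5 these 3 genes were at 8.98, 7.90 and 6.59, far below the other early arrays. In control arrays Gad2 lay between 10.20 and 11.05. Over the list of GABA receptors and transport 10 of 14 were above 0, with a median of 0.04 (12 of 14 and 0.25 with all arrays). Of the 11 interneuron markers, a list that holds Gad2 and Slc32a1, 3 were above 0 and 8 below, with a median of -0.09.

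Astrocyte and oligodendrocyte markers had mostly positive differences, without any member past the threshold. Of 17 astrocyte markers 16 were above 0, with a median of 0.16 (0.29 with all arrays). An unadjusted p under 0.05 was found for 6 of the 17, and for 9.27% of all tested features. Slc1a2, the main glutamate transporter of astrocytes, ran from 9.72 to 9.88 in the 5 remaining early arrays and from 9.95 to 10.18 in the 6 lifetime arrays, and differed by 0.28 (SE 0.06, adjusted p = 0.117). The mean log2 level of the astrocyte list lay between 8.61 and 8.95 in those early arrays, between 8.81 and 9.20 in those lifetime arrays and between 8.64 and 8.88 in control arrays, so the groups overlapped. Of 17 oligodendrocyte markers 14 were above 0, with a median of 0.21. Cldn11, a tight junction protein of myelin, differed by 0.61 (SE 0.21, adjusted p = 0.371), and by 0.44 with lifetime array 13 also left out. Its values were 8.51 to 9.88 in the 6 lifetime arrays and 7.43 in lifetime array 8. Fa2h, which makes myelin lipids, differed by 0.23 (SE 0.09, adjusted p = 0.402). Of 13 microglia markers 6 were above 0 (median -0.05), with Tyrobp, a signalling adaptor, at -0.25 (SE 0.12, adjusted p = 0.552). Of 5 oligodendrocyte precursor markers 4 were above 0 (median 0.04).

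Markers of meninges, vessels and choroid plexus were read for other tissue in the captures. All 8 tested markers of meninges and fibroblasts were below 0, with a median of -0.24. Dcn, a collagen-binding proteoglycan, ran from 6.91 to 7.44 in the 5 remaining early arrays and from 6.35 to 7.58 in the 6 lifetime arrays, with a difference of -0.48 (SE 0.17, adjusted p = 0.396). Col1a2, a collagen chain, differed by -0.29 (SE 0.16, adjusted p = 0.575). The mean level of the meninges list lay between 6.57 and 6.91 in those early arrays, between 6.39 and 6.83 in those lifetime arrays and between 6.26 and 6.94 in control arrays. Endothelial and pericyte markers had 1 of 11 above 0 with a median of -0.04, and no blood marker was tested because all 3 measured ones were below the filter. Of 10 measured choroid plexus and ependyma markers 3 were tested. Ttr, the choroid plexus marker, lay between 4.31 and 5.02 in the lifetime and early arrays and was 13.10 and 12.36 in control arrays 14 and 16, against at most 4.60 in the other 4. With control arrays 14 and 16 left out, 0 features passed with all lifetime and early arrays (519 at an unadjusted p under 0.05, limma). Without early array 5 and lifetime array 8, 9 then passed, 8 higher and 1 lower. Coq9, Acsl6, Bzw2 and Scaper were no longer among them, and Rpl37a fell by 0.47 (adjusted p = 0.0435). The part of these cell types in the gene differences was not tested.

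Some genes of excitatory forebrain neurons varied among the early arrays. Of 7 tested markers of cortical excitatory neurons 2 were above 0, with a median of -0.15. Bhlhe22, a transcription factor of cortical and hippocampal neurons from the granule cell list, was 7.69, 8.38 and 8.93 in early arrays 2, 4 and 6, and 6.15, 6.41 and 5.13 in early arrays 1, 3 and 5. In the 7 lifetime arrays it lay between 5.25 and 6.64, and its difference without the 2 arrays was -1.29 (SE 0.49, adjusted p = 0.414). Cck, a neuropeptide of cortical neurons and interneurons from the interneuron list, followed the same arrays at 8.96, 8.52 and 8.87, against 7.12, 7.23 and 7.90 in the other early arrays and 6.86 to 7.62 in lifetime arrays, with a difference of -0.95 (SE 0.36, adjusted p = 0.405). Nrn1, a membrane-anchored neuritin, differed by -0.90 (SE 0.37, adjusted p = 0.470) and Emx1, a transcription factor of the dorsal forebrain, by -0.23 (SE 0.09, adjusted p = 0.456). Control arrays spanned 4.88 to 7.62 for Bhlhe22 and 6.74 to 8.61 for Cck, so both genes also varied without overexpression. Slc17a7 did not follow this order, with 5.83, 5.41 and 5.45 in early arrays 2, 4 and 6. Over the granule cell list as a whole, 3 of 6 tested members were above 0, with a median of -0.03. The differences in that list ran from -1.29 to 0.41.

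Synaptic and channel genes had no member past the threshold and medians near 0. Presynaptic genes had 10 of 24 above 0 (median -0.01), among them Stx1a, a syntaxin of vesicle fusion, at -0.44 (SE 0.17, adjusted p = 0.405). Postsynaptic genes had 8 of 20 above 0 (median -0.01), and Camk2b, which differed by 0.27 (SE 0.09, adjusted p = 0.332), lay opposite to Camk2a. Glutamate receptors had 8 of 14 above 0 (median 0.05), with Grm3, a metabotropic receptor, at 0.33 (SE 0.10, adjusted p = 0.321). Potassium channels had 14 of 31 above 0 (median -0.01), with Kcna1 at 0.17 (SE 0.07, adjusted p = 0.414), and sodium and calcium channels 14 of 25 (median 0.03), with Cacnb4 at 0.28 (SE 0.10, adjusted p = 0.392; 0.48 with all arrays). Axon guidance genes had 19 of 29 above 0 (median 0.03), with Epha7, an ephrin receptor, at 0.44 (SE 0.14, adjusted p = 0.321) and Slit3, a guidance ligand, at -0.23 (SE 0.08, adjusted p = 0.383). Neuropeptides and their receptors had 8 of 19 above 0 (median -0.04), and the receptors for serotonin, noradrenaline, acetylcholine and cannabinoids 4 of 9 (median -0.0019).

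Several metabolic lists had larger medians with all arrays than without the 2. Proteasome genes were above 0 in 26 of 26 with all arrays, with a median of 0.38, and in 22 of 26 without the 2 arrays, with a median of 0.09. Their mean log2 level was 7.31 in early array 5 and between 8.98 and 9.15 in the other early arrays. Oxidative phosphorylation genes were above 0 in 55 of 66 with all arrays (median 0.28) and in 40 of 66 without the 2 (median 0.02), and cytosolic ribosomal protein genes in 15 of 23 (median 0.19) and 8 of 23 (median -0.07). Psmb4, a proteasome subunit, differed by 0.28 (SE 0.10, adjusted p = 0.392), Cyc1, a cytochrome of the respiratory chain, by 0.24 (SE 0.06, adjusted p = 0.184) and Rps19 by -0.24 (SE 0.09, adjusted p = 0.436). With all arrays Psmb4 differed by 0.72 (SE 0.39) and Cyc1 by 0.41 (SE 0.12). Chromatin modifiers had 17 of 30 above 0 (median 0.03), and Smarca2, a chromatin remodelling ATPase, ran from 9.67 to 10.11 in the 5 remaining early arrays and from 10.17 to 10.89 in the 6 lifetime arrays. The difference of Smarca2 was 0.49 (SE 0.11, adjusted p = 0.118), and that of Tet3, which oxidises methylated cytosine, was -0.25 (SE 0.08, adjusted p = 0.289). With all arrays they were 0.78 (SE 0.37) and -0.46 (SE 0.24). Heat shock genes had 9 of 19 above 0 (median -0.03), and 12 of 18 with all arrays (median 0.15), with Hspa1b at -0.73 (SE 0.28, adjusted p = 0.413). Immediate early genes had 5 of 12 (median -0.06), clock genes 10 of 15 (median 0.03), with Nr1d2, a clock repressor, at 0.21 (SE 0.12, adjusted p = 0.589; 0.68 with all arrays), and genes of MAP kinase and neurotrophin signalling 13 of 20 (median 0.05), with Nras at 0.22 (SE 0.06, adjusted p = 0.211; 0.09 with all arrays). Over all 36 lists, 1 member rose and 0 fell among the 561 tested genes without the 2 arrays, where 0.106% of all tested features rose and 0% fell.

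**Figure D4:**
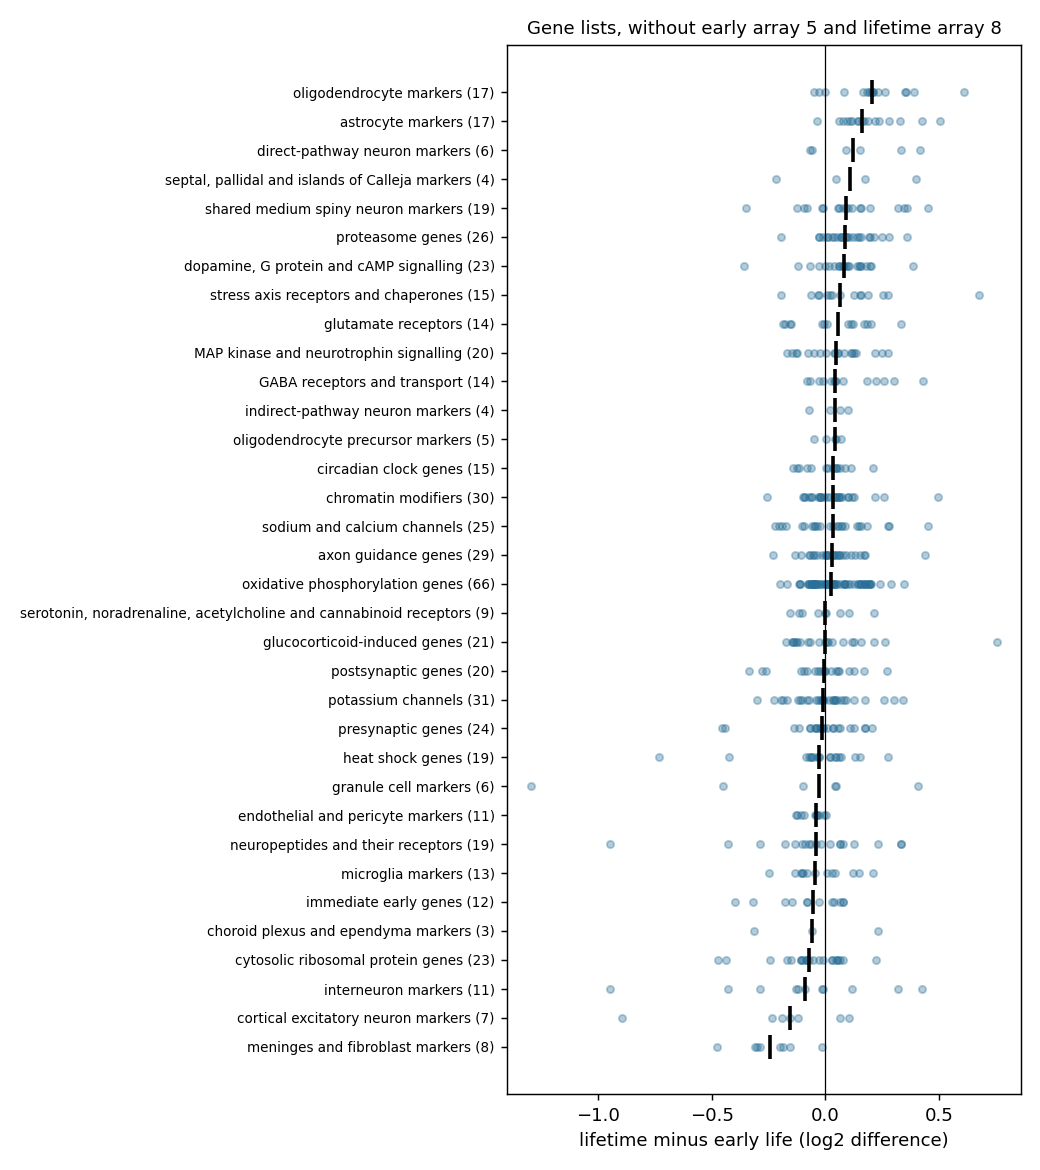
Lifetime minus early-life difference (x axis, log2) of each tested member (points) of the gene lists with at least 3 tested members, in the comparison without early array 5 and lifetime array 8. Black ticks are list medians, the number in brackets is the number of members tested, and lists are ordered by median, from 0.21 for oligodendrocyte markers to -0.24 for meninges and fibroblast markers.

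Whether lifetime and early-life overexpression differed in the same way in the dentate gyrus was tested within animals, on the DG value minus the accumbens value of each. With all 18 animals 36 features passed the threshold (0.319% of those tested), and 80 passed without animals 5 and 8 (0.708%). In the dentate gyrus on its own 155 features passed between lifetime and early-life tissue (1.37%, with 0.779% higher and 0.593% lower; 68, or 0.602%, without animals 5 and 8), and none of the 12 features called in the accumbens was among the 155 (limma, adjusted p under 0.05). The dentate differences of the 11 named rises lay between -0.42 and 0.32, 7 of them above 0. Of the 12, the predicted transcript XM_001476640 alone had a region difference past the threshold, at -1.09 (SE 0.25, adjusted p = 0.0473) without animals 5 and 8. For the other 11 the region difference did not pass, which does not show that the regions responded alike. Leaving out 1 animal moved the count of 36 to between 17 and 56 and the count of 80 to between 24 and 64.

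Pcdh19, an X-linked protocadherin that takes part in adhesion between neurons, had opposite differences in the regions. It was measured by 2 features that may share probes. The first ran from 6.76 to 8.17 in the 6 early accumbens arrays (median 7.92) and from 8.10 to 8.87 in the 7 lifetime arrays (median 8.39), with 6.76 in early array 5. Its control arrays lay between 7.30 and 7.48, below all 7 lifetime arrays and below every early array but number 5. In the dentate gyrus the same feature ran from 9.85 to 10.23 in early arrays and from 9.19 to 9.45 in lifetime arrays, so there the order was reversed and the groups did not overlap. The lifetime minus early difference was 0.52 in the accumbens (SE 0.11, adjusted p = 0.0655, without the 2 arrays) and -0.73 in the dentate gyrus (SE 0.11, adjusted p = 0.000564). The region difference was -1.22 (SE 0.14, adjusted p = 9.86e-05) without animals 5 and 8 and -1.38 (SE 0.21, adjusted p = 0.00335) with all. The second feature differed by 0.56 (adjusted p = 0.0570; 0.88 with all arrays) and -0.77 (adjusted p = 0.000564) in the 2 regions.

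Most of the other features with the smallest adjusted p in the region test had their difference in the dentate gyrus. Blnk, a linker protein downstream of antigen receptors on B cells, ran from 5.82 to 6.44 in early and from 5.63 to 6.42 in lifetime accumbens arrays, and from 8.44 to 9.18 and from 10.76 to 11.46 in the dentate gyrus. Its region difference was 2.37 (SE 0.18, adjusted p = 1.9e-06). Inhba, the activin A subunit, differed by -0.20 (SE 0.09, adjusted p = 0.539) in the accumbens and by 1.53 (SE 0.10, adjusted p = 1.91e-08) in the dentate gyrus. Doc2b, a calcium sensor of vesicle release, and Spata13, an exchange factor for small GTPases, differed by -0.06 and 0.02 in the accumbens (-0.15 and 0.05 with all arrays) and by -1.17 and -0.98 in the dentate gyrus. Car4, a carbonic anhydrase, Fst, which binds activin, Ptgr1, a prostaglandin reductase, and Tbr1, a transcription factor of glutamatergic neurons, were below the filter in the accumbens, where no test was made. Hspa1a, a heat shock chaperone, differed by -0.42 (SE 0.17, adjusted p = 0.442) in the accumbens and by 0.41 (adjusted p = 0.283) in the dentate gyrus, neither past the threshold, and its region difference was 0.96 (SE 0.18, adjusted p = 0.0167). Of the 80 features, 55 were called in the dentate gyrus with all its arrays, and 1 in the accumbens without the 2 arrays. The dentate differences given for single genes also come from all dentate arrays.

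**Figure D5:**
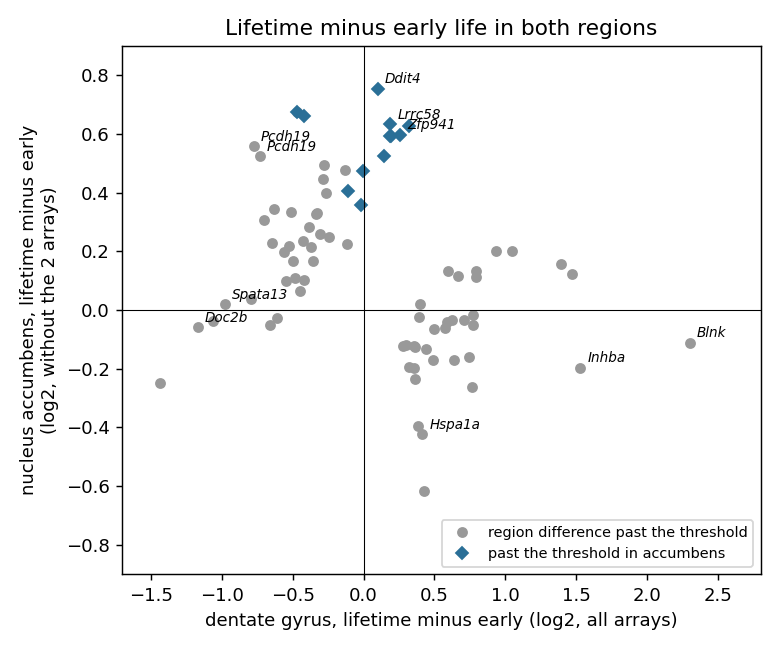
Lifetime minus early-life difference in the dentate gyrus (x axis, log2, all arrays) against that in the nucleus accumbens (y axis, log2, without early array 5 and lifetime array 8). Grey points are the 68 features with a region difference past the threshold that were tested in both regions, and blue diamonds are the 12 features called in the accumbens. Blnk and Inhba lie far along the dentate axis, Pcdh19 in the upper left, and the blue diamonds between -0.47 and 0.32 on the dentate axis.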

How the data were processed

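Each sample was hybridised to 1 array, and the deposited values are log2 expression values. Per the submitters' processing notes the authors used RMA; its version is not stated there. The array platform and the probe design are not given in the sources used here. The deposited table held 24142 accessions with values from 3.23 to 15.21, and 5307 of them repeated the values of another accession and were collapsed, which left 18835 features. Symbols came from a RefSeq table of build GRCm38.p6, which matched 20920 accessions. Of the features, 17260 had 1 symbol, 29 several and 1546 none.

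Lifetime and early-life arrays were compared with limma 3.58.1 in R 4.3.3, in a fit of the 3 accumbens groups, two-sided, with Benjamini-Hochberg adjustment over all tested features and a threshold of 0.05. Features with a mean under the 40th percentile of the fitted arrays were left out, so a low gene has no test. The region test used the DG minus accumbens value within each animal. Single values were tested by exact permutation of the group labels. The named genes are Nr3c1, features past the threshold (or, where a fit had fewer than 5, its 8 smallest p values each way), the 2 smallest p values of each list without a call, and up to 8 features with the smallest adjusted p of each region test, with 1 symbol each; not every gene the rule allows is described, and some named by it are not reported here. Members, lists and the 2 arrays left out were chosen with earlier results of these data known. Alternatives covered the filter, the normalization, the variance model, array weights, the arrays fitted, a covariate, the threshold, the replicate block and leaving out each array. The limma fit of the accumbens groups was tested on simulated data, and the permutation test on a small made-up case. The simulated spread was taken from the arrays without early array 5 and lifetime array 8. The region test, the lists and the motif search had no such test.

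The series text states that both regions came from each animal, and the shared title number was taken as the animal. Over 18 animals the deviations of the 2 regions correlated between -0.20 and 0.48 (median 0.13), with 11 over 0.1. The number of arrays limits the precision. Each p-value sets a group difference against the spread between arrays, or between animals in the region test.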

Additional observations from a re-analysis of the deposited data

Results flagged for a closer look

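In a group of 4 to 10 arrays a value was singled out when its gap to the nearest other array, over the whole range of the group, exceeded Dixon's 95% critical value, which chance does in about 1 of 20 groups. Of 75 measures, 34 singled out an early array, each time array 5, and 10 a lifetime array, 9 of them array 8.

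Early array 5 was far below the other early arrays for named rises at log2 levels of 5.48 for Tulp4, 6.02 for Zfp941, 5.81 for Coq9, 10.39 for Actb, 8.0007 for Acsl6, 7.22 for Zc3h4 and 6.94 for Scaper. Among neuronal genes it was low at 9.33 for Tac1, 6.64 for Slc35d3, 7.22 for Prkar2b, 8.98 for Gad2, 7.90 for Slc32a1, 6.59 for Abat and 8.24 for Cacnb4. Among glial genes and genes of the other lists it was low at 9.23 for Slc1a2, 6.02 for Cldn11, 7.17 for Hsp90aa1, 5.45 for Nr1d2, 10.11 for Cyc1, 7.15 for Smarca2 and 7.48 for Psmb4. Among genes of the region test it was low at 7.12 for Spata13 and at 6.76 and 5.79 for the 2 features of Pcdh19. It was far above the other early arrays at 7.79 for Actn2, 8.32 for Emx1, 7.32 for Nras, 9.33 for Tet3, 5.80 for Car4, 5.37 for Ptgr1, 6.33 for Fst and 8.19 for Doc2b. Its array median of 6.50 was the highest and its interquartile range of 1.72 the lowest of the early group.

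Lifetime array 8 was far below the other lifetime arrays at 6.45 for Zfp941, 9.44 for Acsl6, 7.78 for Zc3h4, 8.33 for Nr1d2 and 9.21 for Smarca2. It was far above them at 7.79 for Camk2a, 7.94 for Tet3 and 6.62 for Slit3, and in its array median of 6.27. Lifetime array 10 was far below the others for Nrn1, at 6.60.

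The lifetime minus early difference was not the same in the 2 regions for 11 named features, by limma on the DG minus accumbens values within animals. Among them, Car4, Fst, Ptgr1 and Tbr1 were below the filter in the accumbens, and Pcdh19 counts as 2 features that may share probes. With all animals the region differences were 2.35 for Blnk, 1.65 for Inhba, 2.24 for Car4, 1.39 for Fst, 1.88 for Tbr1 and 0.95 for Hspa1a. They were -1.50 for Ptgr1, -1.06 for Spata13, -1.06 for Doc2b and -1.38 and -1.61 for Pcdh19. Without animals 5 and 8 they were 2.37 for Blnk, 1.58 for Inhba, 2.19 for Car4, 1.36 for Fst, 1.68 for Tbr1 and 0.96 for Hspa1a, and -1.52 for Ptgr1, -1.07 for Spata13, -1.22 for Doc2b and -1.22 and -1.29 for Pcdh19.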

How the results depend on the processing

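With all arrays, the count of 1 feature past the threshold became 0 without a filter (988 at an unadjusted p under 0.05), after quantile normalization (511), with trended variance (583), with the early and lifetime arrays alone (358) and with the interquartile range as a covariate (587). It became 2 with the 60th percentile filter, centred arrays, 1 value per gene or a threshold of 0.10, 61 with array weights (44 higher and 17 lower), and 0 to 2 on leaving out 1 array. Without early array 5 and lifetime array 8, the count of 12 became 19 with the 60th percentile filter, 21 after quantile normalization (14 higher and 7 lower), 77 with array weights (57 higher and 20 lower), 31 at a threshold of 0.10, 1 with the interquartile range as a covariate, and 0 to 15 on leaving out 1 array. With the animal as a replicate block over both regions the 2 counts were 1 and 0, and Lrrc58 had an adjusted p of 0.0399 with all arrays. Chosen after seeing the data, leaving out control arrays 14 and 16 gave 0 and 9. Leaving out early array 5 alone gave 0 calls and lifetime array 8 alone 2. For the region test, the count of 36 became 19 with centred arrays, 13 with the early and lifetime animals alone and 17 to 56 on leaving out 1 animal, and without the replicate block it was 43. The count of 80 became 24 to 64 on leaving out 1 animal and 56 without the block. The Nr3c1 difference ranged from 0.18 to 0.37 with all arrays and from 0.18 to 0.30 without the 2, on leaving out 1 array, and its exact p passed 0.05 with all arrays once early array 4 or lifetime array 8 was out. Small accumbens differences changed sign in 3 genes that passed no test there. Blnk became 0.0016 after quantile normalization, 0.0371 with array weights and 0.0060 with the covariate, and 0.0262 with array weights in the reduced set. Spata13 became -0.0450 with the covariate, and -0.0290 without early array 5 and, in the reduced set, between -0.0271 and 0.0697 on leaving out 1 array (lowest without lifetime array 10, highest without lifetime array 13). Doc2b became 0.0018 and, in the reduced set, 0.0067 with the covariate. The array correlation difference was -8e-04 without the 2 arrays. The causes were not tested.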

Other observations

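Markers of neighbouring and hippocampal cells gave few tested members. Of 6 tested granule cell markers, 3 had differences above 0 without the 2 arrays (median -0.03). Plk5, a polo-like kinase of neurons, ran from 7.53 to 7.84 in the 5 remaining early arrays and from 7.91 to 8.45 in the 6 lifetime arrays, and differed by 0.41 (SE 0.11, limma adjusted p = 0.198). Lhx2, a forebrain transcription factor, differed by -0.22 (SE 0.10, adjusted p = 0.498). Of 4 tested markers of septum, pallidum and islands of Calleja, 3 were above 0 (median 0.11). Of 6 measured cholinergic markers, 5 were below the filter and 1 was tested.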
